A study of Mus musculus with 6 samples.

Results

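Organic ion and drug transporters are the membrane proteins that carry bile pigments, hormones, drugs and small organic ions across the hepatocyte. They were taken here as the rows of the gene count table named Slco, Slc22a, Slc10a or Slc47a, or Abcb or Abcc followed by a digit, together with Abcg2, leaving out the bile salt carriers Slc10a1 and Abcb11. Of 26608 gene symbols, 69 matched and 48 of these had 10 or more counts summed over the 6 mice. They comprise 30 Slc genes, grouped as uptake, and 18 Abc genes, grouped as efflux. At the threshold, Slco4c1 was kept with 10 counts and Slco1c1 was left out with 9. Of the 21 rows left out, 7 had no count in any mouse.

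At 6 weeks of age, livers were taken from 3 LiKM and 3 LiK mice, names that the labels leave unexplained. What follows on the alleles comes from knowledge of the study's publication. LiKM mice lack Mdm2 in hepatocytes and LiK mice keep it. Mdm2 is the ubiquitin ligase that keeps the tumour suppressor p53 low. Both genotypes share a further engineered allele that is not described here. In that study the deletion is made by Cre under the albumin promoter, which is active in hepatocytes and in the precursors they share with bile duct cells. The sex of the mice is not given in the sources used here.

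In background terms, solute carriers of the Slco and Slc22a families bring organic anions and cations from the blood into the hepatocyte. ATP-binding cassette (Abc) pumps then expel the drugs and their conjugates, either across the canalicular membrane into bile or back across the sinusoidal membrane into blood. The grouping by name is not exact. Slc47a1 expels cations, several Abcb genes encode pumps of mitochondria or lysosomes, and Abcc9 encodes a channel subunit.

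The 6 libraries held 19909993 to 20762712 counts in LiKM and 20778717 to 24874343 in LiK, and the 48 genes took 0.351% to 0.447% of them. All levels below are CPM, read counts relative to the TMM-scaled size of the library. Adjusted p-values are Benjamini-Hochberg values over all genes tested with edgeR's quasi-likelihood method, and fold changes carry their standard error (SE). Mdm2 had 122, 125 and 60.5 CPM in LiKM livers, against 28.7, 29.0 and 28.6 CPM in LiK livers, a log2 fold change of 1.83 (SE 0.27; edgeR adjusted p = 0.0196). Its count sums all exons, so it does not show whether part of the gene was deleted. Over all genes, LiK 3 stood nearer to LiKM 1 and LiKM 2 than to the other LiK libraries in a chi-square per gene (54.2 and 61.6, against 92.2 and 77.3 for LiK 1 and LiK 2), while the Pearson correlation of log2 CPM placed it nearer its own genotype. Hepatocyte markers were high in every mouse, summing to 124500 to 142500 CPM in LiKM livers and 120400 to 144500 CPM in LiK livers over 10 genes. Most of each sum was Alb, at 91378 to 103215 CPM in LiKM livers and 80638 to 101784 CPM in LiK livers. Of the 10 genes, 8 had a negative log2 fold change, with a median of −0.28 (−0.00345 over all genes tested). In 4 of them every LiKM liver lay below every LiK liver (11.8% over all genes tested). None of these 10 was called in the main edgeR fit (all 6 mice, default filter), where 2 had an unadjusted p under 0.05. DESeq2 and limma-voom called 1 each, lower in LiKM. Under edgeR 1 was also called lower without a filter, with a block for the replicate number, and without LiKM 1.

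Genes were called at an adjusted p under 0.05 over the 13537 genes tested, of which 5.11% were called higher and 0.813% lower in LiKM (5.92% in either direction). Of the 48 transporter genes, 43 passed the filter on low counts, 25 for uptake and 18 for efflux. Of these, 2 (Abcc12 and Slc22a26) passed through the LiKM libraries alone, so that a higher level in LiKM was part of being tested. Among the 25 uptake genes tested, 1 was higher in LiKM (Slco3a1), 3 were lower (Slc22a3, Slc22a4 and Slc22a28) and 21 were not called. Among the 18 efflux genes, 4 were higher (Abcb1b, Abcc1, Abcc9 and Abcc12), 0 were lower and 14 were not called. At an unadjusted p under 0.05 in edgeR, 9 of the 18 efflux genes were higher and 4 lower. Of the 25 uptake genes, 4 were higher and 9 lower at that threshold, and of all 13537 genes tested 2078 were higher and 954 lower. DESeq2 and limma-voom each called 3 efflux genes lower (Abcb10, Abcc6 and Abcc10). The median log2 fold change was −0.06 over the uptake genes, 0.26 over the efflux genes and −0.00345 over all genes tested. The efflux median was 0.152 without LiKM 2, and the uptake median ranged from −0.186 to −0.0470 with 1 library left out. With library totals the median was 0.421 over the efflux genes, 0.0917 over the uptake genes and 0.155 over all genes. The 3 LiKM livers lay wholly above the LiK livers in 9 efflux and 4 uptake genes, and wholly below them in 6 efflux and 8 uptake genes. Over all genes tested, 17.8% lay wholly above and 11.8% wholly below (29.6% in either direction). Uptake and efflux were not tested against each other. In bulk RNA, fewer cells of a type and less RNA per cell cannot be told apart.

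**Figure D1:**
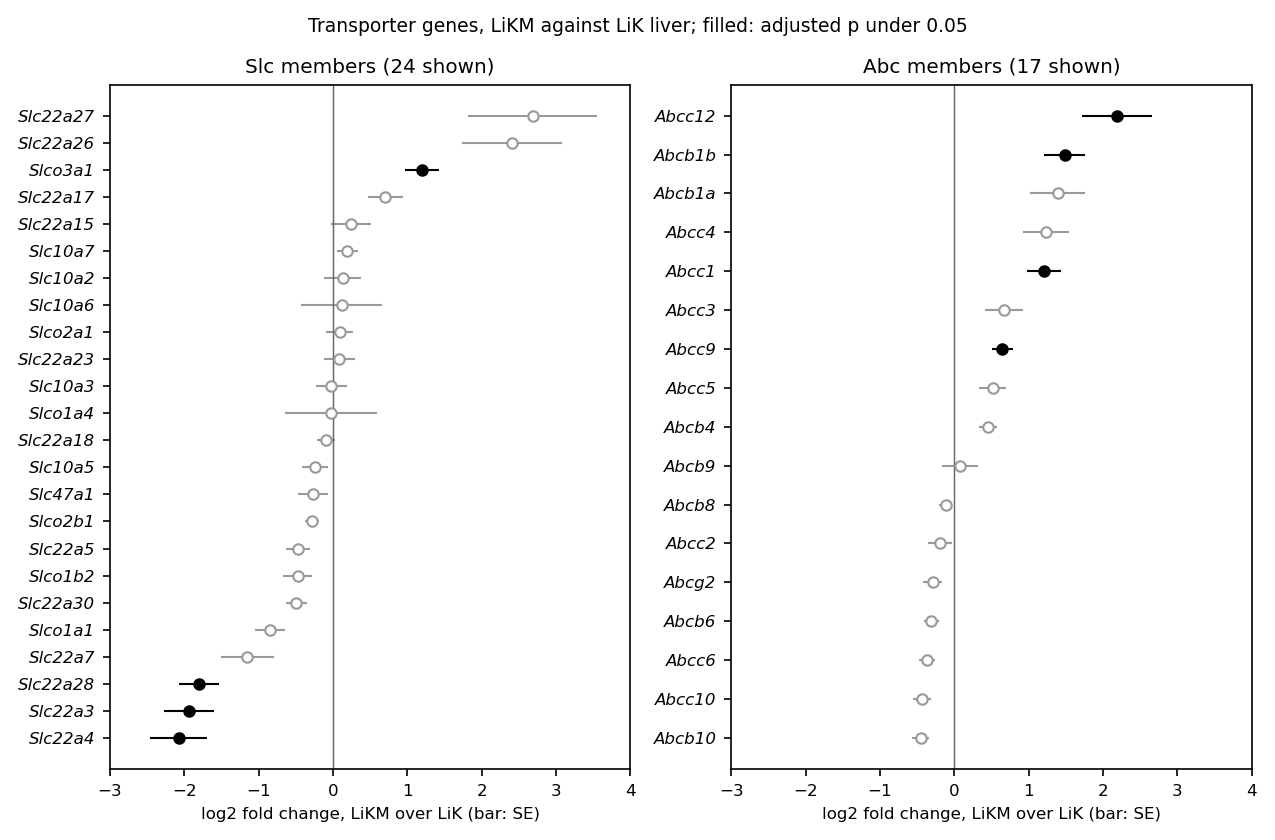
Log2 fold change of LiKM over LiK liver (x axis) for 24 of the 25 tested Slc genes (left) and 17 of the 18 tested Abc genes (right), with bars of 1 standard error; filled points had an adjusted p under 0.05. The filled Slc points are Slc22a3, Slc22a4 and Slc22a28 to the left of 0 and Slco3a1 to the right, and the 4 filled Abc points all lie to the right of 0.

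The 3 uptake genes that fell in LiKM belong to the Slc22a family. Slc22a3, a carrier of organic cations including monoamines, had 1.79, 0.726 and 1.11 CPM in LiKM livers, against 4.04, 4.93 and 4.88 CPM in LiK livers. Every LiKM liver was below every LiK liver, with a log2 fold change of −1.93 (SE 0.33; edgeR adjusted p = 0.0251). With 1 mouse left out, Slc22a3 was no longer called without LiKM 2, LiK 1, LiK 2 or LiK 3 (edgeR adjusted p 0.0617 to 0.0890) and held without LiKM 1 (0.0275) and LiKM 3 (0.0473). In the GENCODE annotation exons of Slc22a3 overlap exons of Plg, the plasminogen gene, on the other strand. The strand setting of the counting is not known here, so reads of the overlap cannot be told apart. Plg itself had 3196, 2708 and 3086 CPM in LiKM livers, against 4121, 3770.4 and 3394 CPM in LiK livers, and was not called (log2 fold change −0.33, SE 0.15, edgeR adjusted p = 0.262).

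Slc22a4, the carrier of the antioxidant ergothioneine, was lower in LiKM. It had 0.611, 0.635 and 0.289 CPM in LiKM livers, against 1.97, 2.87 and 1.72 CPM in LiK livers, from 13, 14 and 6 counts in LiKM and 41, 57 and 42 counts in LiK. The groups did not overlap, and the log2 fold change of −2.08 (SE 0.38; edgeR adjusted p = 0.0302) was the most negative of the 43 genes tested. Slc22a4 was not called without LiKM 1, LiKM 2, LiK 1, LiK 2 or LiK 3 (edgeR adjusted p 0.0534 to 0.102) and held without LiKM 3 (0.0461). Its chromosomal neighbour Slc22a5, the main carrier of carnitine, had 14.002, 11.4 and 10.2 CPM in LiKM livers, against 15.8, 18.4 and 15.02 CPM in LiK livers and was not called (log2 fold change −0.47, SE 0.16, adjusted p = 0.141). In the longest transcript of Slc22a5, 27.1% of 50-base stretches also occur in another gene, mainly Slc22a21 and Slc22a4, so its count is uncertain.

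Slc22a28 lies in a cluster of closely similar Slc22a genes and also fell. It had 4.32, 2.77 and 3.91 CPM in LiKM livers, against 11.6, 9.66 and 16.9 CPM in LiK livers, with every LiKM liver below every LiK liver and a log2 fold change of −1.80 (SE 0.27; edgeR adjusted p = 0.0204). The fall of Slc22a28 lost its call without LiKM 2, LiK 1 or LiK 2 (edgeR adjusted p 0.0554 to 0.0745) and held without LiKM 1 (0.0381), LiKM 3 (0.0314) and LiK 3 (0.0412). Of the 50-base stretches in its longest transcript, 53.9% also occur in another gene, mostly Slc22a30 and Slc22a29, so the split of reads between these copies is uncertain. The coding sequences of Slc22a28 and Slc22a30 are identical over their first 431 bases. Bases 382 to 481 of each are shown because they hold the end of that run, with the single differing base in capitals.
Slc22a28: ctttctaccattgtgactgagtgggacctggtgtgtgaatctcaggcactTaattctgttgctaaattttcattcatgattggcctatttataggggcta
Slc22a30: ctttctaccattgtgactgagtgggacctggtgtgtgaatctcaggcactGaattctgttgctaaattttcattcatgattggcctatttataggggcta
Slc22a30 was the more abundant of the pair, at 29.5 ± 1.93 CPM per kilobase in LiKM livers and 41.5 ± 6.84 in LiK livers, against 1.83 ± 0.402 CPM per kilobase in LiKM livers and 6.35 ± 1.87 in LiK livers for Slc22a28 (SD, n = 3 each). It had 104, 91.8 and 102 CPM in LiKM livers, against 143, 115 and 161 CPM in LiK livers, below LiK in every mouse but not called (log2 fold change −0.49, SE 0.14, adjusted p = 0.0937), though DESeq2 called it lower. How reads matching both genes were counted is not known here. Summed over both genes, the level was 108, 94.6 and 106 CPM in LiKM and 155, 125 and 178 CPM in LiK.

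Other genes of the same cluster had higher values in LiKM, at low counts. Slc22a27 had 0.470, 3.68 and 1.78 CPM in LiKM livers, against 0.0482, 0.302 and 0.533 CPM in LiK livers, and Slc22a26 had 0.517, 2.40 and 1.25 CPM in LiKM livers, against 0.289, 0.101 and 0.369 CPM in LiK livers. LiKM 2 was the highest mouse for both, and neither was called (log2 fold change 2.69, SE 0.87, adjusted p = 0.125 for Slc22a27; log2 fold change 2.41, SE 0.67, adjusted p = 0.0852 for Slc22a26). DESeq2 called both higher (adjusted p 0.0189 for Slc22a27, in a range of 0.0189 to 0.329 over all alternatives, and 0.0161 for Slc22a26, in a range of 0.0161 to 0.238). Slc22a26 reached the count filter in LiKM libraries only. Slc22a27 reached it in 3 LiKM libraries and 1 LiK library, so its being tested also rested on the LiKM libraries. Slc22a29 had 0, 5 and 25 counts in LiKM and 1, 2 and 1 in LiK and was too scarce to test. Slc22a27 and Slc22a29 each share 30.5% of their 50-base stretches with another gene. Over Slc22a26 to Slc22a30 together the level was 109, 101 and 110.3 CPM in LiKM and 155, 125 and 179 CPM in LiK, most of it Slc22a30.

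The uptake carriers that hepatocytes are best known for were not called. Slco1b2, which takes up bilirubin, bile acids and statins, had 774, 584 and 521 CPM in LiKM livers, against 829.8, 739.5 and 1039.8 CPM in LiK livers, with overlapping groups (log2 fold change −0.47, SE 0.20, adjusted p = 0.216). Slco1a1, an organic anion carrier that is male-predominant in mouse liver, had 293, 231 and 278 CPM in LiKM livers, against 409, 407 and 624 CPM in LiK livers. All 3 LiKM values were lower and LiK 3 stood above the other LiK mice, but the adjusted p missed the threshold (log2 fold change −0.84, SE 0.20, adjusted p = 0.0566). Among the fits without a block, limma-voom, DESeq2 and edgeR without a filter called Slco1a1 lower (adjusted p 0.0349, 0.00161 and 0.0400, in a range of 0.00161 to 0.165 over all alternatives).

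Slco1a4, a related carrier with a wide range of substrates, varied most within each genotype among the uptake genes averaging over 10 CPM (coefficient of variation 52.3% in LiKM and 72.0% in LiK). It had 37.0, 66.4 and 23.2 CPM in LiKM livers, against 12.6, 41.9 and 74.4 CPM in LiK livers. The highest and the lowest value both belonged to LiK mice, and the fold change near 0 (log2 −0.03, SE 0.61, edgeR adjusted p = 0.985) leaves a wide margin in either direction. Slco2b1, by contrast, was tight within each genotype, at 168 ± 4.21 CPM in LiKM and 205 ± 3.23 CPM in LiK (SD, n = 3 each). Its values did not overlap, yet the shift was small and not called (log2 fold change −0.28, SE 0.09, adjusted p = 0.131), though DESeq2 called it (adjusted p 0.0357, in a range of 0.0357 to 0.529 over all alternatives).

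Cation and anion carriers of the Slc22a and Slc47a families showed no further calls. Slc22a7, an organic anion carrier, had 43.2, 43.1 and 20.5 CPM in LiKM livers, against 101, 88.0 and 48.6 CPM in LiK livers. Each LiKM mouse lay below each LiK mouse, with mouse 3 lowest in both genotypes, and the gene was not called (log2 fold change −1.15, SE 0.36, adjusted p = 0.111). DESeq2 called Slc22a7 lower (adjusted p 0.0130, in a range of 0.0130 to 0.292 over all alternatives). Slc47a1, the proton-driven exporter of cations, had 88.0, 94.3 and 62.1 CPM in LiKM livers, against 108, 111 and 76.4 CPM in LiK livers, again with mouse 3 lowest in both genotypes and groups that overlapped (log2 fold change −0.27, SE 0.20, adjusted p = 0.478).

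Slco3a1, an organic anion carrier, was the uptake gene that rose. It had 6.67, 6.26 and 9.93 CPM in LiKM livers, against 3.08, 3.37 and 3.49 CPM in LiK livers. LiKM 3 was the highest, the LiK mice lay close together, and the log2 fold change of 1.20 (SE 0.22; edgeR adjusted p = 0.0312) was called. Slco3a1 lost its call without LiKM 1, LiKM 2, LiK 1, LiK 2 or LiK 3 (edgeR adjusted p 0.0566 to 0.114) and held without LiKM 3 (0.0426). Slco2a1, the prostaglandin transporter of endothelial and other cells, had 90.8 ± 22.8 CPM in LiKM and 85.2 ± 6.84 CPM in LiK (SD, n = 3 each) and was not called (adjusted p = 0.799). The 5 Slc10a genes, from the family of bile acid carriers, had log2 fold changes from −0.24 to 0.19 and no call. Of these, 0 had an unadjusted p under 0.05 in edgeR and 0 were called by DESeq2 or limma-voom. Slc22a17, a receptor for the iron-binding protein lipocalin, had 2.26, 1.95 and 1.83 CPM in LiKM livers, against 1.35, 1.16 and 1.19 CPM in LiK livers and was not called (log2 fold change 0.71, SE 0.24, adjusted p = 0.137). Slc22a15, Slc22a18 and Slc22a23, relatives with less well known substrates, had log2 fold changes of 0.25, −0.09 and 0.09 and no call. The uptake genes not tested were Slco4a1, Slco4c1, Slc22a13b, Slc22a21 and Slc22a29, each with at most 56 counts over the 6 mice.

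**Figure D2:**
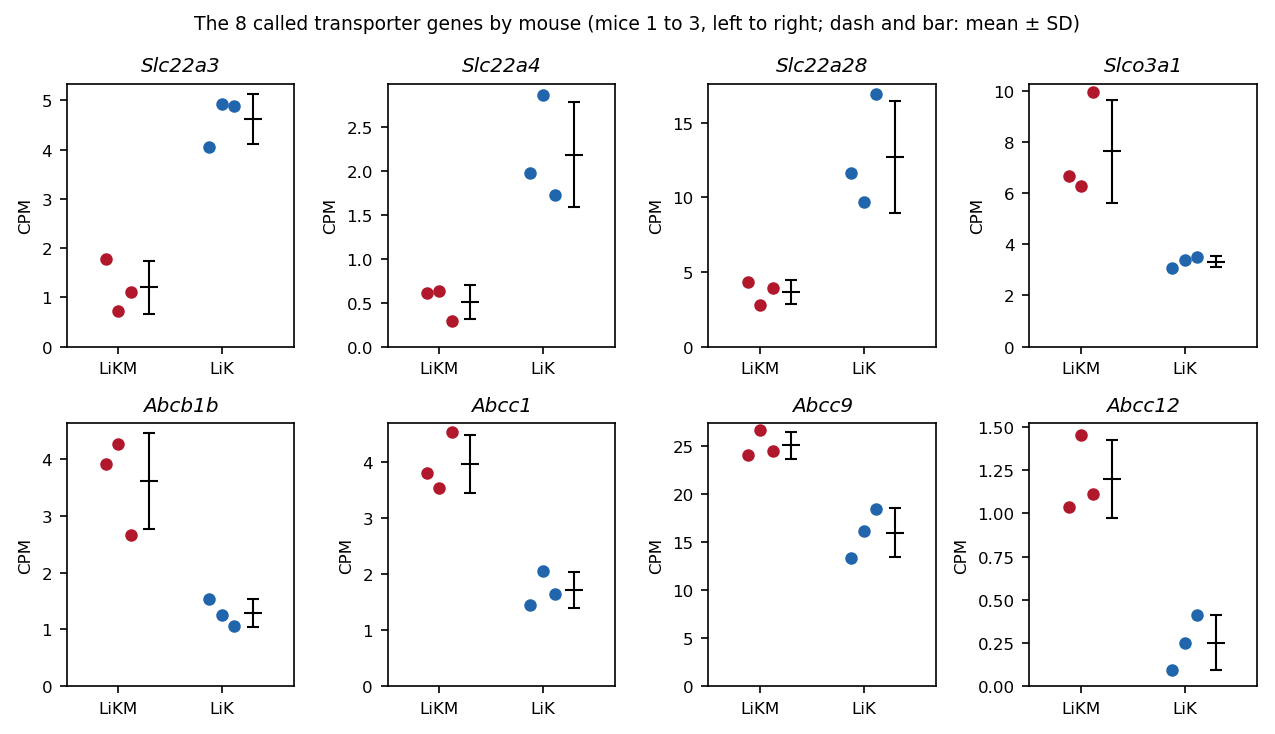
CPM (y axis, from 0) of the 8 called genes in each mouse, LiKM left and LiK right in every panel, with the mean and SD beside the points (n = 3 each). LiKM points lie wholly below LiK points for Slc22a3, Slc22a4 and Slc22a28 and wholly above them for Slco3a1, Abcb1b, Abcc1, Abcc9 and Abcc12.

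Of the efflux genes, both P-glycoprotein genes had higher values in LiKM and 1 was called. Abcb1b, which encodes a broad-range drug pump, had 3.90, 4.27 and 2.65 CPM in LiKM livers, against 1.54, 1.26 and 1.07 CPM in LiK livers. All LiKM values exceeded all LiK values, LiKM 3 by the least, with a log2 fold change of 1.48 (SE 0.28; edgeR adjusted p = 0.0318). Abcb1b dropped out of the calls without LiKM 1, LiKM 2, LiK 1, LiK 2 or LiK 3 (edgeR adjusted p 0.0785 to 0.119) and held without LiKM 3 (0.0255). Its neighbour and paralog Abcb1a had 10.1, 19.3 and 8.68 CPM in LiKM livers, against 3.52, 6.84 and 4.19 CPM in LiK livers. LiKM 2 was the highest and LiKM 3 the lowest LiKM mouse, and Abcb1a was not called (log2 fold change 1.39, SE 0.37, adjusted p = 0.0784). The replicate spread of Abcb1a (SD 5.77 CPM in LiKM and 1.76 CPM in LiK) was wide beside its means of 12.7 CPM in LiKM and 4.85 CPM in LiK. DESeq2 called Abcb1a higher (adjusted p 0.00600, in a range of 0.00600 to 0.228 over all alternatives).

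Abcb1b and Abcb1a share part of their sequence, so some reads cannot be placed. Of their 50-base stretches, 18.3% of Abcb1b and 17.0% of Abcb1a occur in another gene, and the longest identical coding run between them is 338 bases. The end of that run is shown with the single differing base in capitals, at coding bases 1654 to 1753 of Abcb1b and 1645 to 1744 of Abcb1a.
Abcb1b: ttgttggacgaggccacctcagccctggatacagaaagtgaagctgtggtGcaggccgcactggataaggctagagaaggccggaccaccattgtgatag
Abcb1a: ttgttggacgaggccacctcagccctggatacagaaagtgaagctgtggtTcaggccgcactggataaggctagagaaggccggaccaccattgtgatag
Summed, the pair reached 13.96, 23.6 and 11.3 CPM in LiKM and 5.06, 8.10 and 5.25 CPM in LiK, with every LiKM liver above every LiK liver.

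The promoters of this pair differ in the motifs found. They are shown because both neighbours had higher values in LiKM while 1 was called. Each is 250 bases before to 50 bases after the start in RefSeq's annotation of GRCm38.p6, written 5′ to 3′ along the gene, with motif matches in capitals. Abcb1b lies at chr5:8797897-8798196 and Abcb1a at chr5:8566841-8567140, both on the plus strand.
Abcb1b promoter: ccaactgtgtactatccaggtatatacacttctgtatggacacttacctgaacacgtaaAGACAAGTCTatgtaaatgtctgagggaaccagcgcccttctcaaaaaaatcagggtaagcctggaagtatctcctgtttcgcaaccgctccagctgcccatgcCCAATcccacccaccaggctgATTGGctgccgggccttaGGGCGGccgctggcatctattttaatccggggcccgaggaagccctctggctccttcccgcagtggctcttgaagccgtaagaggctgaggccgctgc
Abcb1a promoter: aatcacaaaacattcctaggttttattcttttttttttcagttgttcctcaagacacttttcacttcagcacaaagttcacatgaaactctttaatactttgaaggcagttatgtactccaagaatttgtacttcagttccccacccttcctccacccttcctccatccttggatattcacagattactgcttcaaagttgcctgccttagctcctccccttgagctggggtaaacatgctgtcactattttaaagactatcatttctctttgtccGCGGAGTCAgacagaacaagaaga
The motifs searched on both strands were the TATA box with the letters TATAAA, the box named for its letters CCAAT, the GC box with the letters GGGCGG, the core of the antioxidant response element with the letters TGACNNNGC, the core of the xenobiotic response element with the letters GCGTG, and the p53 half-site. No matches of different motifs overlap in the promoters shown. In Abcb1b the capitals mark a p53 half-site match 191 to 182 bases before the start, a CCAAT box on each strand and a GC box. In Abcb1a they mark an antioxidant response element core after the start. A p53 half-site occurs in 8.36% of 32851 RefSeq promoters of this length and in 5 of the 42 found for 35 of the 48 transporter genes (11.9%), and the antioxidant core in 12.4% of all promoters and in 8 of the 42 (19%). The 5 lay in Abcb1b, Abcc2, Slc10a7, Slco1a1 and Slco4c1, of which edgeR called only Abcb1b. The windows of Abcc9 and Abcc12, also called higher, held no p53 half-site, and no promoter was found for Abcc1 and Slco3a1. All matches are of letters, with no measurement of binding.

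The promoters of the 3 genes that fell are shown for the same comparison. Slc22a3 lies at chr17:12507655-12507954, Slc22a4 at chr11:54028055-54028354 and Slc22a28 at chr19:8131933-8132232 of GRCm38.p6, all on the minus strand.
Slc22a3 promoter: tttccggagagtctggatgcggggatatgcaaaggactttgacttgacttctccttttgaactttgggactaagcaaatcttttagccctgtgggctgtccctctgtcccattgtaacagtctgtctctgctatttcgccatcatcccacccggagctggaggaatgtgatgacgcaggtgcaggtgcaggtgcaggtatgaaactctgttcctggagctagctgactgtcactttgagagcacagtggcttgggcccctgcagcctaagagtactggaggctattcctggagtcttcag
Slc22a4 promoter: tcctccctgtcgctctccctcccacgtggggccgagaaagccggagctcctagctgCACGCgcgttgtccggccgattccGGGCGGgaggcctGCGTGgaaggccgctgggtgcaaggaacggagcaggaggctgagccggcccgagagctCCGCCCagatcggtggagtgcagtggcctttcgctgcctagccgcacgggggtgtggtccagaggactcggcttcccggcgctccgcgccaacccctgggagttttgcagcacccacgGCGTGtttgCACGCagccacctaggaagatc
Slc22a28 promoter: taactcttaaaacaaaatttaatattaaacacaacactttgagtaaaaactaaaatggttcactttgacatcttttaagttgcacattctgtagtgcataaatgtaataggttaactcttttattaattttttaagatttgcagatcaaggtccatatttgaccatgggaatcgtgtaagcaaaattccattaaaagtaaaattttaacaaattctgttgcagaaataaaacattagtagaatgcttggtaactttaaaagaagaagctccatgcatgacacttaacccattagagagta
In Slc22a4 the capitals mark GC boxes and xenobiotic response element cores, which occur in 35.7% and 32.4% of all promoters. The Slc22a3 and Slc22a28 windows hold none of the letters searched, so the 3 have no motif of this set in common.

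Of the multidrug resistance protein family (Abcc), 3 of 9 genes rose. Abcc1, which expels glutathione conjugates, had 3.81, 3.54 and 4.53 CPM in LiKM livers, against 1.44, 2.06 and 1.64 CPM in LiK livers. The groups did not overlap, with a log2 fold change of 1.20 (SE 0.23; edgeR adjusted p = 0.0337). Abcc1 did not pass without any one of LiKM 1, LiKM 2, LiKM 3, LiK 1, LiK 2 or LiK 3 (edgeR adjusted p 0.0669 to 0.116). Abcc12, a pump whose substrates are little known, had 22, 32 and 23 counts in LiKM and 2, 5 and 10 counts in LiK. Its log2 fold change of 2.19 (SE 0.47; edgeR adjusted p = 0.0416) rests on a gene that passed the count filter through the LiKM libraries alone. Abcc12 failed the threshold without any one of LiKM 1, LiKM 2, LiKM 3, LiK 1, LiK 2 or LiK 3 (edgeR adjusted p 0.0542 to 0.144).

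Abcc9 rose as well, though it encodes the sulfonylurea receptor subunit of a potassium channel and not a drug pump. It had 24.1, 26.7 and 24.5 CPM in LiKM livers, against 13.3, 16.2 and 18.5 CPM in LiK livers, with a log2 fold change of 0.65 (SE 0.14; edgeR adjusted p = 0.0467). The LiKM livers lay close together and above all LiK livers. The rise of Abcc9 was not called without any one of LiKM 1, LiKM 2, LiKM 3, LiK 1, LiK 2 or LiK 3 (edgeR adjusted p 0.0534 to 0.158). Abcc9 is known from smooth muscle and pericytes, and markers of stellate cells and matrix also had higher values in LiKM. Of 10 stellate markers 5 were called higher and 0 lower, all 10 had a positive log2 fold change with a median of 1.21, and their sum ranged over 644 to 671 CPM in LiKM livers and 241 to 388 CPM in LiK livers. None of the 10 was at 0, and their part in the result was not tested.

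Markers of some other cell types also differed between the genotypes. Of 10 macrophage markers 5 were called higher, with sums of 343 to 452 CPM in LiKM livers and 236 to 279.5 CPM in LiK livers. Of 8 tested T and natural killer cell markers 7 were called higher, with sums over all 10 of 14.2 to 20.1 CPM in LiKM livers and 3.73 to 6.98 CPM in LiK livers. Of the 7, Cd3e, Cd3d, Cd8a, Lck, Nkg7 and Gzmb passed the count filter through the LiKM libraries alone. For these genes a higher level in LiKM was part of being tested. Of 10 endothelial markers 1 was higher (Plvap), with sums of 292 to 384 CPM in LiKM livers and 262 to 285 CPM in LiK livers. Of 8 tested bile duct markers 0 were called by the main edgeR fit or limma-voom. DESeq2 called 2 higher, and edgeR with library totals called 1 higher. In edgeR 7 of the 8 had a positive log2 fold change, with a median of 1.05, and 4 were higher and 0 lower at an unadjusted p under 0.05. The sums were 111 to 234 CPM in LiKM livers and 82.9 to 255 CPM in LiK livers. Most of each sum was Spp1, at 83.6 to 180 CPM in LiKM livers and 56.3 to 225 CPM in LiK livers. Kidney tubule markers, sought because several of these carriers are abundant in kidney, summed to 0.611 to 0.820 CPM in LiKM livers and 0.805 to 1.44 CPM in LiK livers, with 4 of 8 at 0 in every mouse and 1 tested and not called. In each of these lists no marker was called lower. Values went the other way for Cd4, the T cell marker not called (log2 fold change −0.94, unadjusted p 0.0542, edgeR adjusted p = 0.234), and for the endothelial marker Lyve1 (log2 fold change −0.63, unadjusted p 0.0370, edgeR adjusted p = 0.191). Without LiKM 2, LiK 1 or LiK 2 no macrophage, endothelial or stellate marker was called, and 0 to 1 T and natural killer cell markers were. The part of other cell types in the transporter results was not tested.

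The remaining Abcc genes were not called. Abcc4, a sinusoidal pump of cyclic nucleotides and bile acids, had 5.69, 4.67 and 2.65 CPM in LiKM livers, against 1.93, 1.71 and 1.89 CPM in LiK livers. The LiK mice were tight and the LiKM mice spread (log2 fold change 1.23, SE 0.31, adjusted p = 0.0638), and Abcc4 was called without LiKM 3 (edgeR adjusted p = 0.0229) and in 3 of the other settings, over a range of 0.0120 to 0.190. Abcc3, which expels glucuronides into blood, had 276, 253 and 295 CPM in LiKM livers, against 106, 218 and 193 CPM in LiK livers, with LiK 1 well below LiK 2 and LiK 3 (log2 fold change 0.67, SE 0.25, adjusted p = 0.176). Abcc2, the canalicular pump of conjugated bilirubin, had 533, 549 and 382 CPM in LiKM livers, against 563, 571 and 539.9 CPM in LiK livers, overlapping and lowest in LiKM 3 (log2 fold change −0.19, SE 0.16, adjusted p = 0.524). Abcc6, linked to the release of ATP and to tissue calcification, had 191, 209 and 208 CPM in LiKM livers, against 253, 257 and 273 CPM in LiK livers, lower in every LiKM mouse but not called (log2 fold change −0.37, SE 0.10, adjusted p = 0.0830). DESeq2 and limma-voom called Abcc6 lower (adjusted p 0.00740 and 0.0471, in a range of 0.00740 to 0.350 over all alternatives). Abcc10, a pump of lipophilic drugs, had 16.7, 19.9 and 19.9 CPM in LiKM livers, against 23.5, 26.4 and 26.6 CPM in LiK livers, and Abcc5, which expels cyclic nucleotides, had 9.49, 13.2 and 11.4 CPM in LiKM livers, against 9.25, 7.40 and 7.22 CPM in LiK livers. Neither was called (log2 fold change −0.44, SE 0.12, adjusted p = 0.0825 for Abcc10; log2 fold change 0.52, SE 0.18, adjusted p = 0.145 for Abcc5).

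Canalicular pumps of other families did not pass the test either. Abcb4, which moves phosphatidylcholine into bile, had 216, 209 and 246 CPM in LiKM livers, against 147, 171 and 174 CPM in LiK livers. All LiKM values were higher, and the adjusted p missed the threshold (log2 fold change 0.45, SE 0.12, adjusted p = 0.0786). Abcb4 was called higher by DESeq2 and by edgeR with library totals (adjusted p 0.0315 and 0.0373, in a range of 0.0315 to 0.230 over all alternatives). Abcg2, an exporter of sulphated compounds and urate, had 89.1, 73.7 and 75.5 CPM in LiKM livers, against 90.4, 111 and 89.9 CPM in LiK livers, lower in LiKM by a narrow margin (log2 fold change −0.29, SE 0.13, adjusted p = 0.249). The mitochondrial or lysosomal pumps Abcb6, Abcb8, Abcb9 and Abcb10 had log2 fold changes from −0.45 to 0.08 and none was called by edgeR. At an unadjusted p under 0.05, 2 of them (Abcb6 and Abcb10) were lower, and DESeq2 and limma-voom called Abcb10. Abcb6 shares 90.3% of its 50-base stretches with Gm29253, so its count is uncertain.

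**Figure D3:**
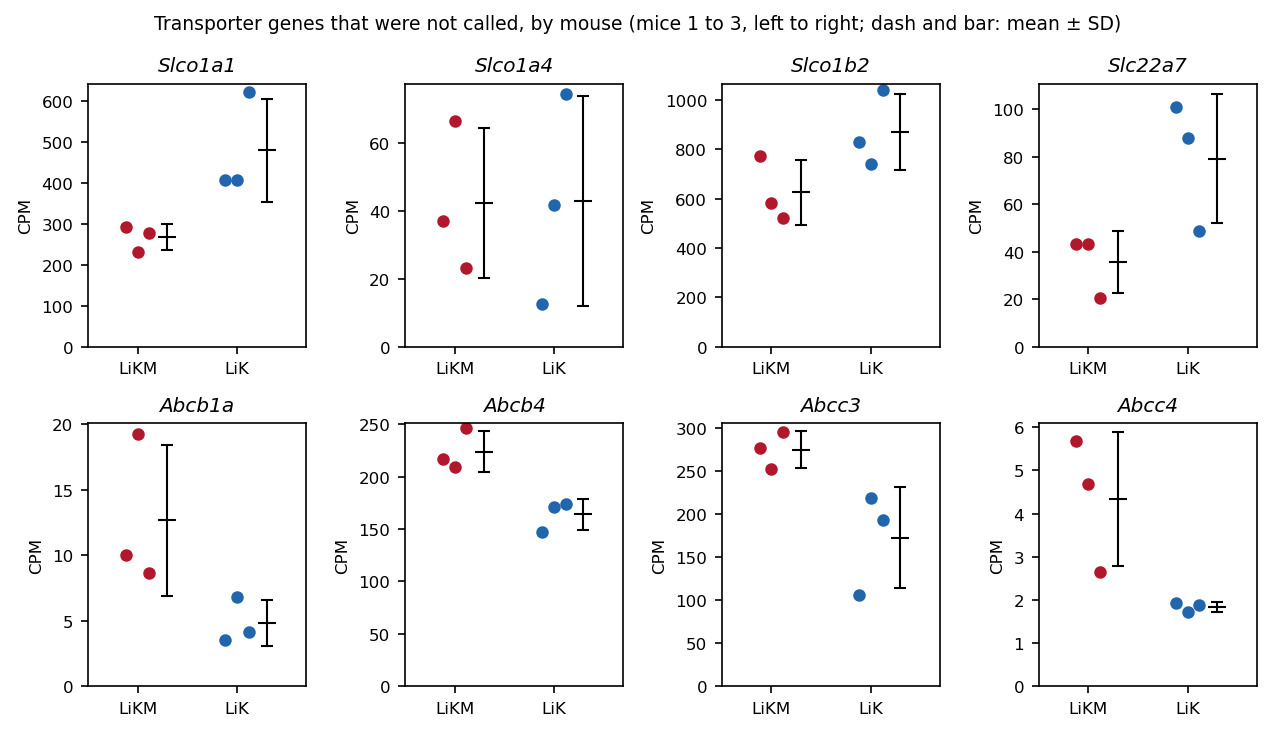
CPM (y axis, from 0) of 8 genes that were not called, in each mouse, LiKM left and LiK right in every panel, with the mean and SD beside the points (n = 3 each). LiK 3 stands out for Slco1a1 and LiK 1 for Abcc3. The LiK values of Slco1a4 are widely spread, and in Slco1a4 and Slco1b2 the genotypes overlap.

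Read counts rise with gene length, so levels were compared between genes as CPM per kilobase of exon, with lengths from GENCODE vM21 for 47 of the 48. Slco1b2 had 127 ± 26.6 CPM per kilobase in LiKM livers and 176 ± 31.2 in LiK livers (SD, n = 3 each), and Slco1a1 had 50.7 ± 6.08 CPM per kilobase in LiKM livers and 90.9 ± 23.7 in LiK livers. Within each genotype every Slco1b2 value lay above every Slco1a1 value. Abcc2 was the highest efflux gene, at 57.2 ± 10.8 CPM per kilobase in LiKM livers and 65.4 ± 1.91 in LiK livers, followed in LiKM by Abcc3 (48.2 ± 3.70 CPM per kilobase in LiKM livers and 30.2 ± 10.3 in LiK livers). In LiK livers Abcc6 ranked above Abcc3, at 45.6 ± 1.88 CPM per kilobase, against 35.4 ± 1.68 in LiKM livers. The 8 called genes all lay well below these, at ranks 24 (Slc22a28) to 44 (Abcc12) of 47 by the sum of both genotype means. The highest called gene was Slc22a28 in LiK livers, at 6.35 CPM per kilobase, and Abcc9 in LiKM livers, at 3.00.

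**Figure D4:**
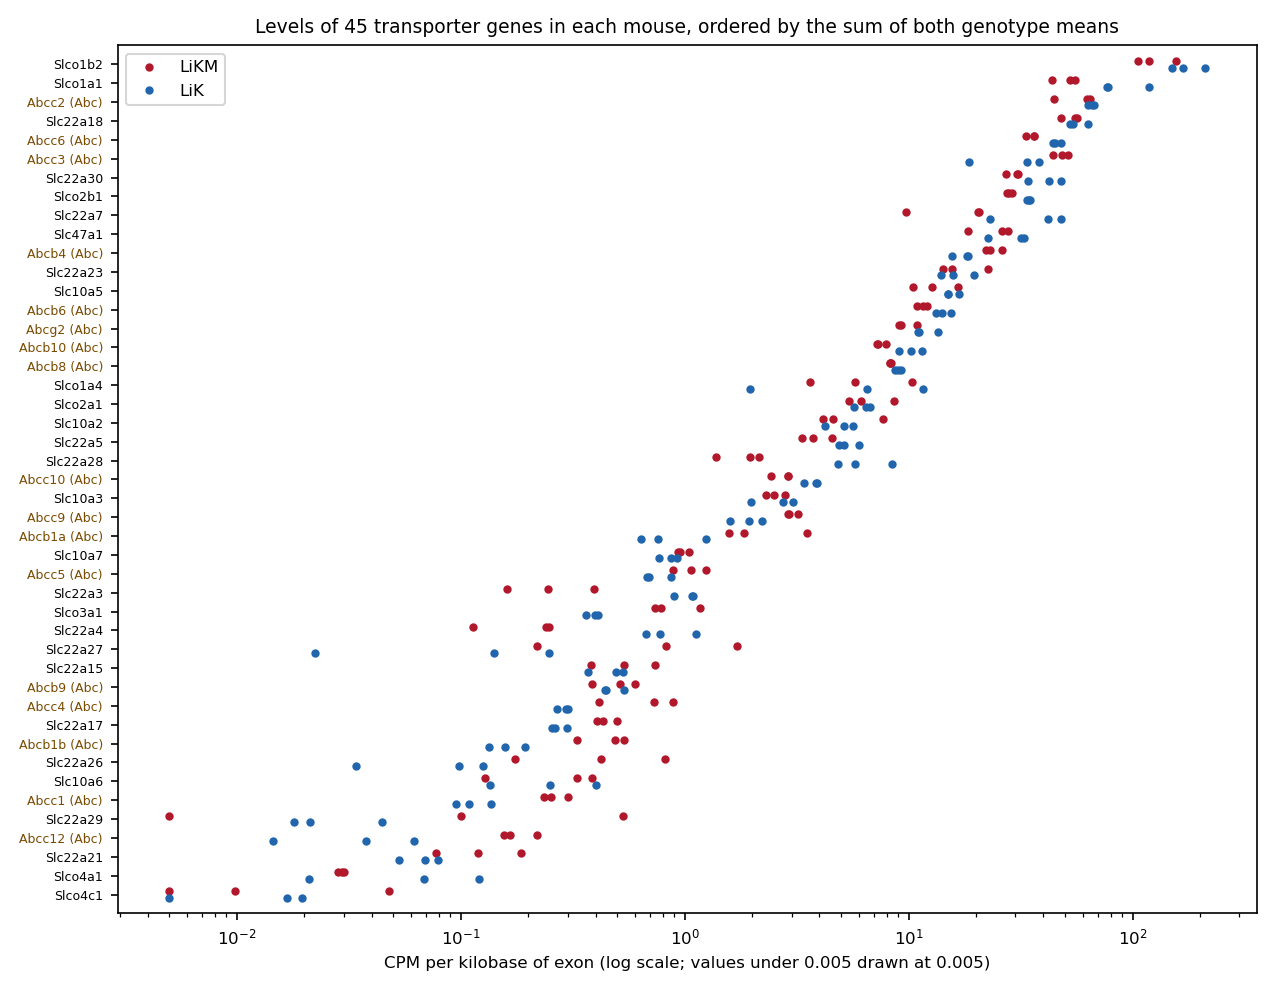
CPM per kilobase of exon (x axis, log scale) of 45 transporter genes in each mouse, ordered from the highest level down, with Abc genes marked in the labels. Slco1b2, Slco1a1 and Abcc2 lie at the top, and the 8 called genes are in the lower part of the plot.

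Levels were also summed within each class. The 30 uptake genes summed to 2248, 1958 and 1926 CPM in the LiKM livers and 2531, 2440.0 and 3008 CPM in the LiK livers. Without Slco1b2 and Slco1a1 the uptake sums were 1182, 1142 and 1126 CPM in LiKM and 1292, 1294 and 1344 CPM in LiK. Every LiKM mouse was below every LiK mouse in both sums with TMM scaling. With library totals, an alternative chosen after seeing the data, the groups overlapped in both. The uptake sums were then 2304, 2167 and 1999 CPM in LiKM and 2284, 2333 and 2946 CPM in LiK, and without the same 2 genes 1212, 1265 and 1169 CPM in LiKM and 1166, 1237 and 1316 CPM in LiK. The 18 efflux genes summed to 1565, 1566 and 1454 CPM in LiKM and 1414, 1603 and 1550.0 CPM in LiK, with overlapping groups. With library totals they summed to 1604, 1733 and 1510.0 CPM in LiKM and 1277, 1533 and 1519 CPM in LiK, which overlapped as well.

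**Figure D5:**
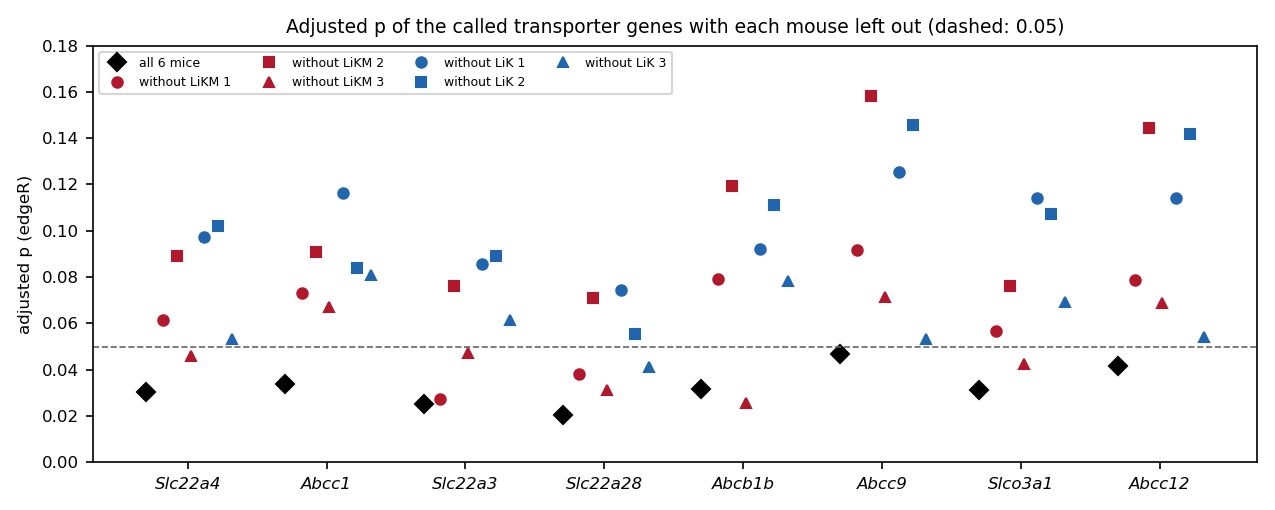
Adjusted p of edgeR's test (y axis) for the 8 called genes with all 6 mice (black) and with each mouse left out (coloured by the genotype of the mouse left out; dashed line at 0.05). Most points lie above the line, and for Abcc1, Abcc9 and Abcc12 all 6 do.

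Genes that work with these carriers were counted in lists, beside 5.92% of all genes tested that were called in either direction. With 6 to 22 genes tested per list, the counts were not tested against that share. Of 12 bile-forming partners listed, 10 were tested and 0 were called by edgeR (1 at an unadjusted p under 0.05; DESeq2 and limma-voom each called Abcg8, a sterol pump, lower). The bile salt uptake carrier Slc10a1 had 629.6, 528 and 359 CPM in LiKM livers, against 624, 667 and 902 CPM in LiK livers (log2 fold change −0.53, edgeR adjusted p = 0.245). The bile salt export pump Abcb11 had 269, 277 and 592 CPM in LiKM livers, against 428, 309.8 and 444 CPM in LiK livers, with LiKM 3 the highest of all mice (log2 fold change −0.05, edgeR adjusted p = 0.937). Slc51a and Slc51b, found under older symbols, were too scarce to test.

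Of 23 receptors and transcription factors known to act on transporter genes, 22 were tested and 0 were called by edgeR. At an unadjusted p under 0.05 in edgeR, 7 were lower and 1 higher, against 954 lower and 2078 higher of all 13537 genes tested. DESeq2 called Cebpa and Ppara lower and limma-voom called Cebpa lower. The median log2 fold change of this list was −0.26, against −0.00345 over all genes. Hnf4a, a master factor of hepatocyte genes, had 705, 615 and 635 CPM in LiKM livers, against 1098, 960.2 and 660.0 CPM in LiK livers (log2 fold change −0.48, edgeR adjusted p = 0.213). Rxra, the partner of many nuclear receptors, had 474, 443 and 375 CPM in LiKM livers, against 569, 551 and 528 CPM in LiK livers (log2 fold change −0.35, edgeR adjusted p = 0.165).

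Of 6 scaffold genes that hold carriers at the membrane, 1 was higher, Msn (moesin, also abundant in leukocytes and endothelium), at 32.5, 39.5 and 39.7 CPM in LiKM livers, against 17.4, 20.6 and 20.6 CPM in LiK livers (log2 fold change 0.93, edgeR adjusted p = 0.0175). Its call was lost without LiKM 2, LiK 1 or LiK 2 (0 of 6 scaffold genes called in each of those fits). Of 20 tested carriers of nucleosides, peptides, folate and urate, 1 was higher, Slc15a3, a lysosomal carrier of histidine and peptides known from immune cells, at 5.64, 8.35 and 11.5 CPM in LiKM livers, against 1.83, 2.57 and 3.82 CPM in LiK livers (log2 fold change 1.62, edgeR adjusted p = 0.0435). In the same list 4 genes were lower and 4 higher at an unadjusted p under 0.05, and DESeq2 and limma-voom each called Slc17a2 and Slc17a5, carriers of organic anions and sialic acid, lower. The call of Slc15a3 held without LiKM 1 and was lost without LiKM 2, LiKM 3, LiK 1, LiK 2 or LiK 3. The medians of these lists were −0.09 and −0.15.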

How the data were processed

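Liver RNA of 3 LiKM and 3 LiK mice was sequenced. Per the labels' protocols, libraries were made from messenger RNA with a stranded kit. Per the submitters' processing notes, reads were counted with featureCounts and checked with FastQC 0.11.7. Aligner, genome build, annotation and strand setting: not given in the sources used here. One table of counts, deposited by the authors, holds unnormalized whole numbers for each gene symbol and mouse, and 0 sample columns were left unused.

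The counts of all genes were tested with edgeR 4.0.16 in R 4.3.3 (quasi-likelihood test, genotype as the only term, TMM factors 0.903 to 1.11). Its default filter, about 10 counts in 3 libraries and 15 in total, kept 13537 genes, and p-values were adjusted by Benjamini-Hochberg over them. Standard errors were derived from the coefficient and its F statistic. The scripts were tested on simulated data. Alternatives were other scalings and filters, DESeq2 1.42.0, limma-voom (limma 3.58.1) with sample weights, a block for the replicate number and leaving out each library.

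Titles number the mice and give each a code, so libraries were treated as separate animals. No pair of libraries agreed within sampling noise. The members and gene lists were chosen with earlier results of these data known. Genes given in full were the called members, those changed at least 2-fold and 15 fixed members. Single-gene values of 2 members are not reported here, though counts, medians and sums include them. Slc22a15, Slc22a17, Slc22a18, Slc22a23, Slc22a30, Slco2a1, Abcc5, Abcc10, the Slc10a and mitochondrial pump genes, Plg and the untested genes were named for their role or position or after their values were seen. GENCODE vM21 (GRCm38) gave exon lengths and shared 50-base stretches, by symbol, and RefSeq the promoters.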

Additional observations from a re-analysis of the deposited data

How the results depend on the processing

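The calls rested on small groups. Leaving out 1 library at a time gave 0 to 1 uptake genes called higher, 0 to 3 uptake genes called lower, 0 to 2 efflux genes called higher and 0 efflux genes called lower, beside 19 to 626 calls over all genes. In these 6 fits the bile-forming partners had 0 calls, and the receptors and factors, the scaffolds and the other carriers 0 to 1 each. Without LiKM 2, LiK 1 or LiK 2 no transporter gene was called. The DESeq2 Wald test called 3 uptake genes higher and 7 lower, 7 efflux genes higher and 3 lower, and 1546 genes in all against 802 in edgeR. Its calls were 1 among the bile-forming partners, 2 among the receptors and factors, 2 among the scaffolds and 3 among the other carriers. Limma-voom called 3 efflux genes lower and 1323 genes in all, with 1, 1, 2 and 3 calls in the same 4 lists. Without a filter, 1 bile-forming partner was called. The cause of these differences between settings was not tested. Scaling by library totals called 2 scaffold genes and moved the median log2 fold change of all genes to 0.155, that of the uptake genes to 0.0917 and that of the efflux genes to 0.421. It moved the LiKM minus LiK difference in summed level from −616 to −364 CPM for uptake and from 5.73 to 173 CPM for efflux. Of 190 values of single named genes under the settings that keep all libraries, 166 kept their direction and side of the threshold, 19 newly passed it, 2 no longer did and 3 changed direction. The log2 fold change of Slco1a4 was 0.12 with library totals, 0.41 with limma-voom and 0.21 with the replicate block, and with 1 library left out it ranged from −0.53 to 0.63. Same-numbered mice were not shown to be paired: the correlations of their deviations from the genotype means were 0.267, −0.000281 and 0.127, and not every mouse correlated best with its own number. With the replicate number as a block, 2 uptake genes were called higher (Slc22a27 and Slco3a1) and 5 lower (Slc22a3, Slc22a4, Slc22a7, Slc22a28 and Slco1a1), 3 efflux genes were called higher (Abcb1a, Abcb1b and Abcc9), and 835 genes were called in all, of which 605 were shared with the 802. Under the block 1 receptor or factor (Foxa3) and 2 other carriers were called, and Abcc1 and Abcc12 had adjusted p of 0.0540 and 0.0548. At 3 mice per genotype, genes with few counts such as Abcc12 and Slc22a4 carry the most counting error.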
